A study of Ovis aries with 16 samples.

Results

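The microRNAs MIR10A and MIR10B were followed through liver and muscle of control ewes and of ewes exposed to testosterone before birth. They were taken from the deposited miRNA table by name, which gave 2 of its 105 miRNAs, each measured in all 16 libraries, and both had reads in every library. MIR103, MIR106 and MIR107, which share only the first digits of the name, were not taken. The rule is by name and holds no threshold on a measured value.

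MicroRNAs are short RNAs that guide Argonaute proteins to matching sites in messenger RNAs and lower their output. The miR-10 genes sit inside the HOX clusters, the gene arrays that give cells their position along the body axis, and their own targets include HOX messages. The mature miR-10a and miR-10b share their seed, the stretch that pairs with targets, and are both known from endothelial cells of blood vessels, where miR-10a restrains inflammatory signalling and the family takes part in vessel growth. In the RefSeq gene table of the sheep assembly ARS-UI_Ramb_v3.0, used here for names and neighbours only, MIR10A lies inside HOXB3 and MIR10B inside HOXD4, which lies between HOXD3 and HOXD8. The 2 miRNAs thus belong to separate HOX clusters. Their mature forms are nearly identical, and how the authors' counting treated reads that match both is not given in the sources used here, so reads may be split between them.

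Small RNA was sequenced from 8 female sheep, 4 control ewes and 4 ewes labelled prenatal T, with a liver and a muscle library from each ewe. The controls were ewes 98, 131, 132 and 201, and the prenatal T ewes were 48, 185, 233 and 255. The sources used here do not give breed, age, the dose of testosterone or which muscle was sampled. The labels name no genetic change in any group.

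The deposited values are reads divided by a size factor of the library, called normalised reads below. The factors were set within each tissue, so normalised reads can be compared between treatments within a tissue but not between liver and muscle. Libraries held 206304 to 755344 miRNA reads in liver and 113522 to 885316 in muscle. The muscle library of ewe 255 was the shallowest and stood apart: MIR133, the skeletal muscle miRNA, made up 37.2% of its miRNA reads against 49.98% to 56.4% in the other 7 muscle libraries. By the library numbers in the labels there were 2 sets, and set 1 held the livers of ewes 98 and 48 and every muscle library but that of ewe 255. MIR194 and MIR148A, the 2 of 4 liver markers in the table, summed to 33851 to 56704 normalised reads in liver libraries and made up at least 9.97% of miRNA reads there, against at most 0.351% in muscle. MIR133 made up at most 0.227% of miRNA reads in a liver library, so the markers measured followed both tissue labels.

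The members had opposite ranks in the 2 tissues. In liver MIR10A was the more abundant by reads, and in muscle MIR10B was. MIR10A held rank 36 to 42 of 105 by reads in the liver libraries and 35 to 38 in the muscle libraries. MIR10B held rank 47 to 60 in liver and 24 to 28 in muscle. Reads of a library are compared here without regard to length, as is usual for mature miRNAs, so a read ratio is not a ratio of molecules.

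MIR10A in control liver gave 344 normalised reads in ewe 98, 321 in ewe 131, 479.6 in ewe 132 and 427 in ewe 201. In prenatal T liver it gave 609.9 in ewe 48, 385 in ewe 185, 336 in ewe 233 and 296 in ewe 255. The exposed ewes thus held both the highest and the lowest liver library, and the groups overlapped. In control muscle MIR10A gave 294, 252, 286 and 229 normalised reads in ewes 98, 131, 132 and 201. In prenatal T muscle it gave 278, 176, 169.6 and 166 in ewes 48, 185, 233 and 255. Of the exposed ewes, 3 lay below every control muscle and ewe 48 lay among the controls.

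MIR10B was low in liver. It gave 105, 64.9, 82.8 and 165 normalised reads in the control livers of ewes 98, 131, 132 and 201. In the prenatal T livers of ewes 48, 185, 233 and 255 it gave 195, 125, 59.2 and 100.3, and the groups overlapped over most of their range. These values rested on 36 to 396 reads per liver library. In muscle MIR10B was carried by 347 to 2335 reads per library, with 1361, 1356, 1764 and 1567 normalised reads in the same order of control ewes. The prenatal T muscles of ewes 48, 185, 233 and 255 gave 1145, 1133, 1347 and 913. Every exposed muscle lay below every control muscle, by a narrow gap between 1347 in ewe 233 and 1356 in ewe 131.

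**Figure D1:**
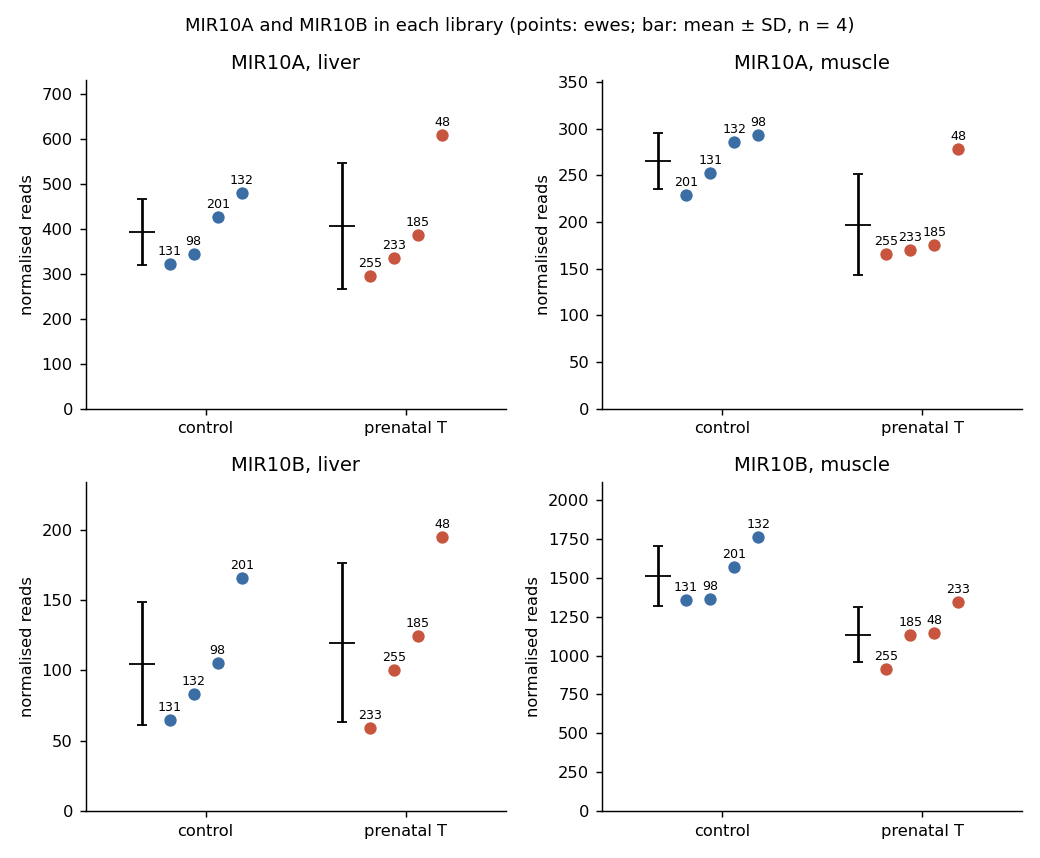
Normalised reads of MIR10A and MIR10B (vertical axis, reads divided by the authors' size factor) in each of the 16 libraries, by group, with the group mean and SD. MIR10B in muscle runs from 913 to 1347 in prenatal T ewes and from 1356 to 1764 in controls, and values of liver and muscle are not on a common scale.

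As a share of all miRNA reads in a library, which needs no size factor, MIR10A stood at 0.102% ± 0.0177 (SD, n = 4) in livers of controls and at 0.0637% ± 0.00701 in their muscles. MIR10B stood at 0.0271% ± 0.0110 in their livers and at 0.364% ± 0.0495 in their muscles. In prenatal T ewes the shares were 0.109% ± 0.0371 and 0.0503% ± 0.0117 for MIR10A in liver and muscle, and 0.0319% ± 0.0147 and 0.288% ± 0.0197 for MIR10B. A share in muscle is lowered by MIR133, which took more than any other miRNA there.

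MIR10B was higher in muscle than in liver, both against MIR10A in the same library and after scaling the libraries jointly. The read ratio of MIR10B to MIR10A was 0.267 ± 0.0983 (SD, n = 4) in control liver and 5.76 ± 0.962 in control muscle. In prenatal T ewes it was 0.290 ± 0.0759 in liver and 6.01 ± 1.61 in muscle. Over the 8 livers it ran from 0.173 to 0.387 and over the 8 muscles from 4.12 to 7.95, so no liver library came near a muscle library.

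Within a ewe the ratio was 21.6-fold higher in muscle as a geometric mean, or 4.44 ± 0.63 (SD, n = 8) on the log2 scale, and it was higher in 8 of 8 ewes. The folds of single ewes ran from 12.9 in ewe 48 to 45.0 in ewe 233. A two-sided exact sign-flip test over the 8 ewes gave p = 0.0078, the smallest its 256 flips allow. This ratio was added after the values of both members had been seen. The mean fold was 22.5 in the 4 control ewes and 20.8 in the 4 prenatal T ewes, where the smallest p of the exact test is 0.125.

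**Figure D2:**
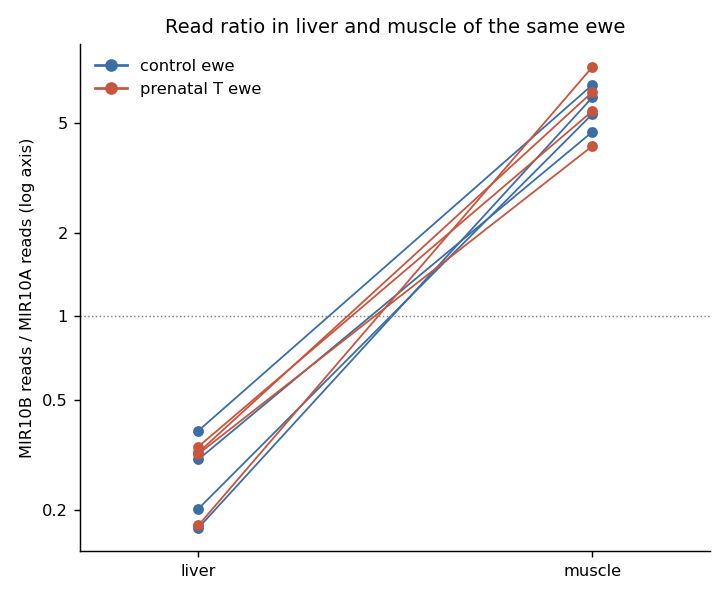
Read ratio of MIR10B to MIR10A (log axis) in the liver and muscle library of each ewe, joined by a line, with control and prenatal T ewes marked. Every line rises, from 0.173 to 0.387 in liver to 4.12 to 7.95 in muscle.

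Tissue and library set went together in part, since 5 ewes had their liver in set 2 and their muscle in set 1. In these 5 ewes the fold of the ratio ran from 17.7 to 45.0. In ewes 98, 48 and 255, whose liver and muscle libraries belonged to the same set, it was 15.2, 12.9 and 16.2. All 3 of these lay below the other 5, and the part of the library set in that gap was not tested.

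Each member was also set against relatives. With the same partner, the gap between the members is by arithmetic that of the MIR10B to MIR10A ratio above and is no further result. Against MIR99A, a sequence relative of the miR-10 family that lies outside the HOX clusters, the MIR10B read ratio was 25.6-fold higher in muscle, with ewes between 15.7-fold and 43.9-fold and 8 of 8 in that direction. Against MIR125B, another relative of this kind, it was 14.5-fold higher, with ewes between 5.84-fold and 26.3-fold. The same ratios of MIR10A differed far less. MIR10A to MIR99A was 1.18-fold higher in muscle, in 7 of 8 ewes, with an exact sign-flip p of 0.0547. MIR10A to MIR125B was lower in muscle in all 8 ewes, at 0.670 of its liver value, with an exact sign-flip p of 0.0078.

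For levels across tissues, the reads of the 8 libraries of each treatment were scaled jointly by median-of-ratios factors. They were tested with limma on log2(value + 1), with no term for the ewe. With the ewe as a block, the adjusted p of MIR10B by limma was 3.0e-08 in controls and 8.5e-07 in prenatal T ewes. In control ewes MIR10B stood at 62.5 ± 29.4 jointly scaled reads (SD, n = 4) in liver and 2341 ± 344 in muscle. This was a log2 difference of 5.30 (SE 0.27), or 39.3-fold with a 95% interval of 26.1 to 59.1, and an adjusted p of 4.9e-09 by limma over 76 miRNAs. It was the second largest rise, after MIR133 with 11.06 on the log2 scale. Among the 76 miRNAs 34.2% were called higher in muscle and 42.1% lower, so a call by itself does not set a miRNA apart.

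MIR10A in the same control ewes went from 233 ± 46.5 to 411 ± 52.8 jointly scaled reads, a log2 difference of 0.83 (SE 0.19) with an adjusted p of 0.0019 by limma, but this sign depended on the scaling. It was -0.66 (adjusted p = 0.00595) when libraries were scaled to their miRNA reads, -1.36 (adjusted p = 2.4e-05) when scaled to the reads of the 4 RNA classes, and 0.41 (adjusted p = 0.0536) when MIR133 was left out of the miRNA total. The MIR10B difference kept its sign and its call under each of these, at 3.81, 3.11 and 4.88. The median over all 76 miRNAs moved with the scaling, from -0.13 to -1.62, -2.33 and -0.55. Relative to it MIR10B stood 5.43 to 5.44 higher and MIR10A 0.96 to 0.97 higher under all 4 scalings. A scaling moves all miRNAs of a library by the same factor. The distance to the median is therefore nearly fixed, and its steadiness is no check on the sign of MIR10A. The calls went from 26 higher and 32 lower to 4 and 58 by miRNA reads, 4 and 71 by the 4 classes, and 19 and 37 without MIR133.

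In prenatal T ewes MIR10B stood at 81.3 ± 39.5 jointly scaled reads in liver and 1801 ± 283 in muscle. The log2 difference was 4.56 (SE 0.32), or 23.7-fold with a 95% interval of 14.8 to 37.9, with an adjusted p of 1.6e-08 by limma over 75 miRNAs, of which 26.7% were called higher in muscle and 36.0% lower. MIR10A stood at 276 ± 99.3 in liver and 314 ± 91.7 in muscle, and its difference of 0.20 (95% interval -0.41 to 0.82, adjusted p = 0.538 by limma) did not pass the threshold. It turned to -1.09 by miRNA reads, to -1.87 by the 4 classes and to -0.070 without MIR133 in the total. The all-miRNA median moved from -0.20 to -1.44, -2.22 and -0.47, relative to which MIR10B stood 4.71 to 4.76 higher and MIR10A 0.35 to 0.40 higher. Here too the distance to the median is nearly fixed by the way libraries are scaled. The calls went from 20 higher and 27 lower to 7 and 54, 2 and 70, and 18 and 36.

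**Figure D3:**
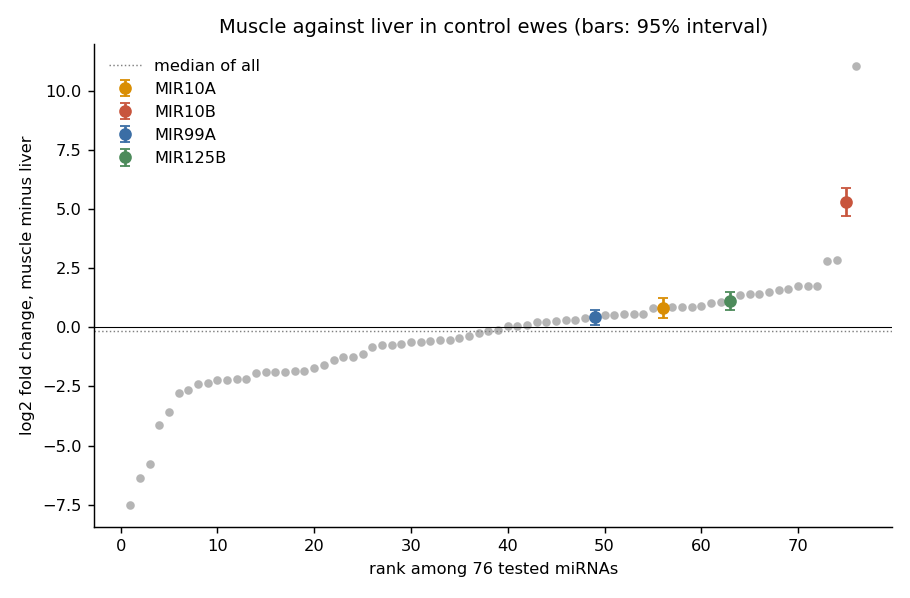
Difference between muscle and liver in control ewes (log2 of jointly scaled reads, limma) for the 76 miRNAs tested, in order of size. Bars are 95% intervals for MIR10A, MIR10B and the relatives MIR99A and MIR125B. MIR10B stands at 5.30, well above its relatives, and MIR10A at 0.83.

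The family relatives gave context to these differences. Of a list of 7 miRNAs of the miR-10 family by sequence, 4 were in the table, namely both members themselves with MIR99A and MIR125B. In control ewes all 4 were called higher in muscle on the joint scale, against 34.2% of all 76 miRNAs. MIR99A differed by 0.42 (adjusted p = 0.0193 by limma) and MIR125B by 1.11 (adjusted p = 0.000107 by limma). The median of the 4, both members included, was 0.97 against -0.13 over the 76 miRNAs. As a share of miRNA reads MIR99A and MIR125B went the other way, from 7.82% ± 0.448 in control liver to 3.73% ± 0.366 in control muscle for MIR99A and from 3.01% ± 0.385 to 2.32% ± 0.298 for MIR125B, so their direction depended on the scaling. In prenatal T ewes 2 of the 4 were called, MIR10B and MIR125B (1.08, adjusted p = 9.0e-06 by limma), while MIR99A was at 0.12 with an adjusted p of 0.538. Of 7 miRNAs listed for the HOX clusters, the table held MIR10A and MIR10B.

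Bulk tissue was measured throughout, so a higher content of the cells that make a miRNA and more of it per cell cannot be told apart. Of 5 markers listed for endothelial and stromal cells the table held 2, MIR143 of smooth muscle and stromal cells and MIR199A of stromal cells. They summed to 7.33% to 11.4% of miRNA reads in liver libraries and to 1.65% to 3.61% in muscle libraries. On the joint scale used for MIR10B, MIR143 stood at 13003 ± 1652 in control liver and 13694 ± 3238 in control muscle, a log2 difference of 0.06 with an adjusted p of 0.771 by limma. MIR199A was lower in control muscle, by a log2 difference of -0.51 (adjusted p = 0.0120 by limma). In prenatal T ewes MIR143 differed by -0.55 (adjusted p = 0.0594 by limma) and MIR199A by -1.10 (adjusted p = 0.0018 by limma). The part of cell content in the tissue difference of MIR10B was not tested.

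Prenatal T muscle held less MIR10B than control muscle in these libraries, but the difference did not survive adjustment over the miRNAs tested. Means were 1512 ± 195 normalised reads in controls and 1135 ± 178 in prenatal T ewes (SD, n = 4 each). MIR10A had means of 265 ± 30.1 and 197 ± 54.0. On the log2(value + 1) scale MIR10B stood at 0.748 of the control level and MIR10A at 0.730.

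By limma the log2 difference of MIR10B was -0.42 (SE 0.16, 95% interval -0.76 to -0.073), with an unadjusted p of 0.0208 and an adjusted p of 0.559 over 64 miRNAs. That of MIR10A was -0.45 (SE 0.21, 95% interval -0.91 to 0.0053), with an unadjusted p of 0.0524 and the same adjusted p. MIR10B had rank 1 and MIR10A rank 6 of the 64 by p. Called by adjusted p were 0.0% of the 64, and 7.81%, or 5 miRNAs, had an unadjusted p under 0.05. Only MIR10B, 1 of the 64 or 1.56%, had all 4 prenatal T muscles below all 4 controls, and 1 other had them all above.

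The share of miRNA reads gave the same order. MIR10B made up 0.310%, 0.349%, 0.429% and 0.367% in the control muscles of ewes 98, 131, 132 and 201. It made up 0.264%, 0.282%, 0.303% and 0.306% in the prenatal T muscles of ewes 48, 185, 233 and 255. The groups did not overlap, although the 95% Wilson intervals of ewes 233 and 255 reached past the lowest control. They were 0.287% to 0.320% in ewe 233 and 0.275% to 0.340% in the shallow library of ewe 255. The lowest control, ewe 98, had an interval of 0.294% to 0.327%. The count of non-overlapping miRNAs above is for normalised reads, and none is given here for shares. The non-overlap of shares therefore does not by itself set MIR10B apart. The difference of means was -0.0752 percentage points, with a two-sided exact permutation p of 0.0286, the smallest that 70 assignments allow, and 0.114 adjusted over the 4 shares tested. With MIR133 left out of the total the exact p was 0.0571, and it was also 0.0571 whichever 1 of the 4 exposed ewes was left out. The MIR10A share differed by -0.0134 percentage points in muscle, with an exact permutation p of 0.114, or 0.229 adjusted.

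**Figure D4:**
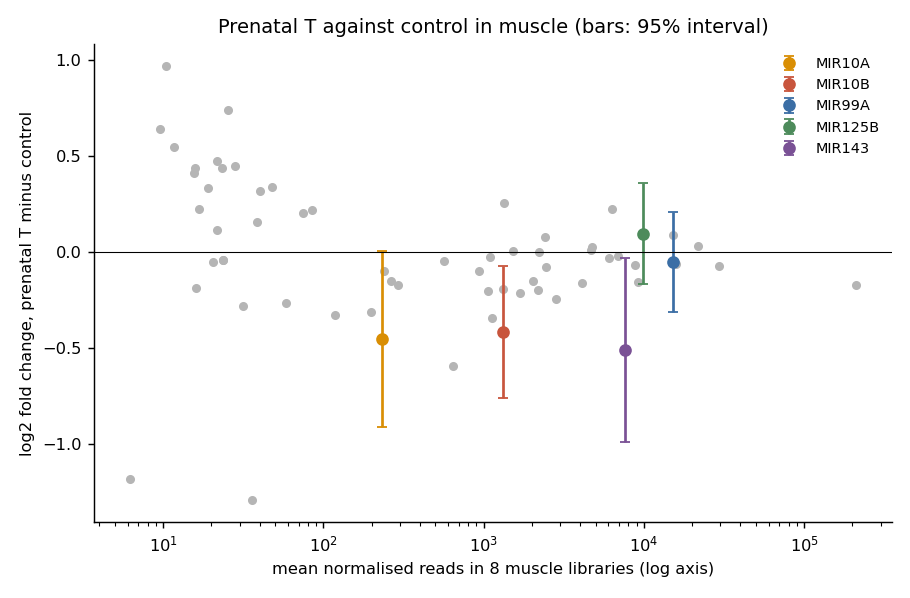
Prenatal T against control in muscle (log2 difference, limma) for the 64 miRNAs tested, with MIR10A and MIR10B marked. Both members lie on the lower side, at -0.45 and -0.42, and none of the 64 passes the adjusted threshold of 0.05.

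The ratio of the members to each other and to a relative set the difference beside other miRNAs of the same library. The MIR10B to MIR10A read ratio in muscle differed by 0.036 on the log2 scale between treatments, with an exact permutation p of 0.886. Against MIR99A, which itself differed by -0.05 between the muscle groups, MIR10B was lower by a log2 difference of -0.37 (exact permutation p = 0.0857) and MIR10A by -0.40 (exact permutation p = 0.114). Both had a value of 0.343 after adjustment over the 6 ratios tested. Against MIR125B, which itself differed by 0.09 between the muscle groups, the MIR10B difference was -0.51. Its exact permutation p of 0.0286 was the smallest that 70 assignments allow and was not among the 6 adjusted.

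Ewes 255 and 48 weighed on these values. Ewe 255, with the only muscle library of set 2, was lowest for MIR10B by normalised reads but highest of the 4 exposed muscles by share of miRNA reads. Within set 1 the means were 1512 ± 195 (n = 4) and 1209 ± 120 (n = 3). Without this ewe the log2 difference was -0.32 for MIR10B and -0.38 for MIR10A, while the difference of MIR10B shares was -0.0809 percentage points. Ewe 48 was highest for MIR10A, and without it the MIR10A difference was -0.63 with an unadjusted p of 0.00478 and an adjusted p of 0.271 by limma. Over all 19 alternatives the MIR10B difference stayed between -0.51 and -0.32 with adjusted p between 0.302 and 0.934, and that of MIR10A between -0.63 and -0.36.

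**Figure D5:**
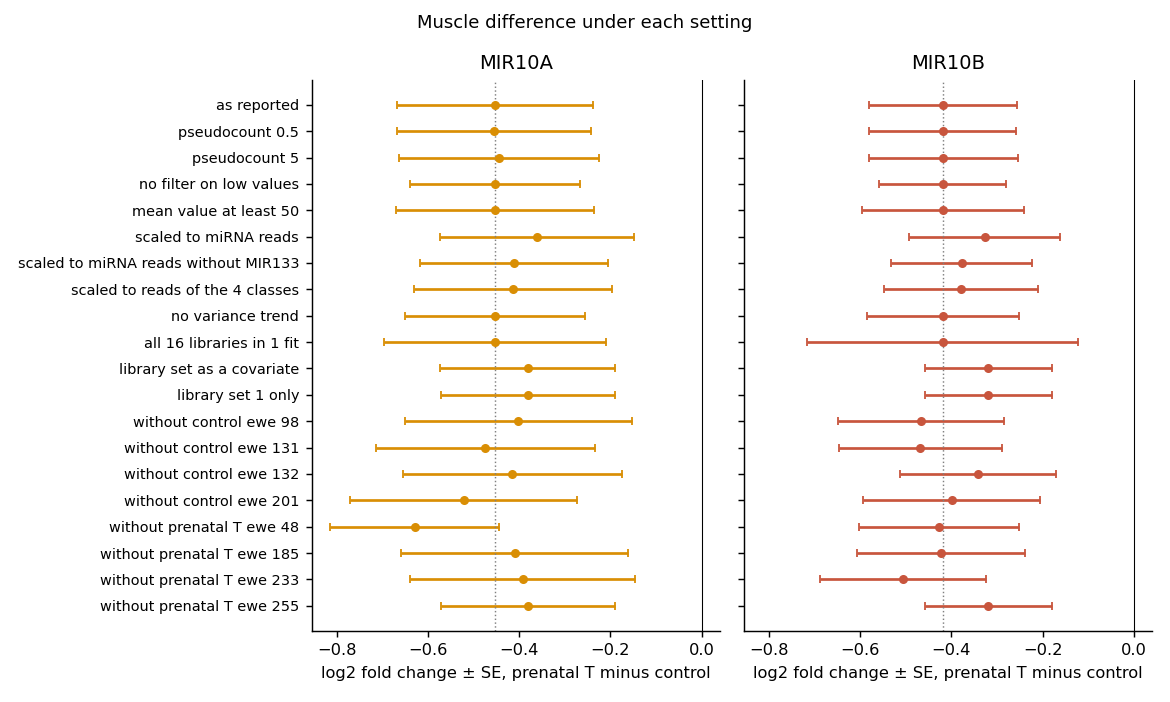
Prenatal T against control in muscle (log2 difference ± SE, limma) for MIR10A and MIR10B under each alternative setting, including those that leave out 1 library. All estimates are below 0, from -0.63 to -0.36 for MIR10A and from -0.51 to -0.32 for MIR10B.

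Most listed vessel and stromal miRNAs had lower means in the same muscles, though none passed the test. Of a list of 11 without MIR10B, 6 were in the table (MIR143, MIR199A, MIR21, MIR221, MIR23A and MIR27A), 5 of them with a negative and 1 with a positive difference, against 37 negative and 27 positive of all 64, and 0 were called. Their median was -0.30 against -0.05 over the 64 miRNAs. MIR143 differed by -0.51 (unadjusted p = 0.0381, adjusted p = 0.559 by limma). The sum of MIR143 and MIR199A ran from 9947 to 14833 normalised reads in control muscle and from 4913 to 11198 in prenatal T muscle. The lowest sum was in ewe 255, at 3561 for MIR143 and 1352 for MIR199A. In ewes 48, 185 and 233 MIR199A was 3059, 3161 and 3127, within the controls at 2703 to 3376. Their MIR143 was 8139, 6241 and 7589, against 7244 to 11457 in controls. The part of these cells in the lower MIR10B was not tested.

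In liver neither member differed between treatments beyond the spread of the ewes. MIR10A had means of 393 ± 73.6 normalised reads in controls and 407 ± 140 in prenatal T ewes, and a log2 difference of 0.01 (95% interval -0.54 to 0.56, adjusted p = 0.988 by limma over 81 miRNAs). For MIR10B the log2 difference was 0.16 (95% interval -0.61 to 0.92, adjusted p = 0.959 by limma). Called by adjusted p were 0.0% of the 81 miRNAs, and 0 had an unadjusted p under 0.05. Neither member had non-overlapping groups, against 1.23% of the 81 with all 4 prenatal T livers above every control and 0.0% with all 4 below. Intervals of this width leave room for changes of the size seen in muscle in either direction.

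The liver of ewe 48 was highest for both members, and it shared library set 1 with ewe 98. Those 2 livers gave 609.9 and 344 normalised reads of MIR10A, and 195 and 105 of MIR10B. Within set 2, with 3 ewes a group, MIR10A had means of 409 ± 80.9 in controls and 339 ± 45.0 in prenatal T ewes, and MIR10B 104 ± 53.6 and 94.7 ± 33.0. The log2 differences there were -0.26 and -0.088, so both changed sign within the set. Shares of miRNA reads differed with exact permutation p of 0.800 for MIR10A and 0.629 for MIR10B.

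The effect of prenatal T was not shown to differ between the tissues. The muscle difference minus the liver difference was -0.46 (SE 0.34, 95% interval -1.17 to 0.25) for MIR10A and -0.57 (SE 0.42, 95% interval -1.44 to 0.29) for MIR10B. Both had an adjusted p of 0.733 by limma over 64 miRNAs, of which 0.0% were called and 2, or 3.12%, had an unadjusted p under 0.05.

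MIR10B was unequally variable in the 2 tissues. Its SD within groups on the log2 scale was 0.64 in liver, where 73 of the 81 miRNAs tested had a smaller one and the median was 0.33. In muscle its SD was 0.21, and 13 of 64 miRNAs had a smaller one. MIR10A had an SD of 0.37 in liver and 0.28 in muscle. The liver reads of MIR10B were few, as given above, which limits the precision of each value.

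Ewes high for a member in liver were not shown to be high in muscle. After subtracting group means on the log2 scale, MIR10A in liver and muscle of the 8 ewes had a Pearson r of 0.750 (permutation p = 0.109) and a Spearman rho of 0.571 (permutation p = 0.191). Without the 2 ewes farthest from the median in liver r was -0.0753, so this relation rested on them. MIR10B gave r = -0.131 (permutation p = 0.776) and rho = -0.0952 (permutation p = 0.872), and r = 0.249 without 2 ewes. Between MIR10A and MIR10B r was 0.654 in liver (permutation p = 0.135, rho 0.619, permutation p = 0.161) and 0.716 without 2 ewes. In muscle it was 0.0899 (permutation p = 0.833, rho 0.0952, permutation p = 0.847) and 0.384 without 2 ewes. Adjusted over these 4 relations, the lowest p of r was 0.271. Within library set 2 the 6 livers gave r = 0.415 between the members (permutation p = 0.528, rho 0.371, permutation p = 0.583). Within set 1 the 7 muscles gave r = -0.235 (permutation p = 0.576, rho -0.286, permutation p = 0.514). For liver against muscle, 5 ewes shared a layout of sets, fewer than the 6 set as a minimum for a correlation.

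As a description over the 16 libraries, which share size factors and depth, the deviations of MIR10B from its group means were most like those of MIR99A among the 63 other miRNAs, with r = 0.578. MIR10A followed with 0.517, MIR143 with 0.497, MIR218A with 0.391 and MIR148A with 0.380. The tissues differed in this: MIR99A had r = 0.635 over the livers and 0.134 over the muscles, MIR218A 0.637 and -0.263, and MIR143 0.605 and 0.785. The least alike were MIR493 with -0.699, MIR329B with -0.648 and MIR191 with -0.373. Of these, MIR493 and MIR329B are miRNAs of the imprinted DLK1-DIO3 cluster. Over the livers and the muscles, MIR493 had r = -0.843 and -0.331, MIR329B -0.804 and -0.643, and MIR191 -0.364 and -0.463. For MIR10A the most alike were MIR143 with 0.624, MIR374A with 0.612 and MIR218A with 0.578, and the least alike MIR329B with -0.601 and MIR495 with -0.593.

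By mean rank the members had neighbours of like abundance. In control liver MIR10A lay between MIR150 and MIR133, and MIR10B between MIR494 and MIR374A. In control muscle MIR10A lay between MIR30B and MIR221, and MIR10B between MIR27A and MIR150. The shares of each overlapped those of both neighbours over the 4 ewes, so this order is not resolved.

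The HOX clusters gave few other small RNA reads. Of the other 3 classes only lncRNAs had features in or beside a HOX gene, and of these 8 lncRNAs 6 had reads and 0 passed the filter on low values. The highest, LOC105610367 of the HOXD cluster, had 22 reads over the 16 libraries. Of these 15 were in liver, over 7 of 8 libraries, and 7 in muscle, over 3 of 8, with at most 5 in a library. No difference between groups could be read at this depth.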

How the data were processed

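Small RNA libraries from liver and muscle of 4 control and 4 prenatal T ewes were used. Tools named in the submitters' processing notes are featureCounts 1.6.1, STAR 2.6.0c and cutadapt 3.2, and the genome build is not given in the sources used here. For each miRNA the deposited signal is its reads over a size factor, with 1 factor for each library and RNA class, set within a tissue. All 1432 miRNA values above 0 were whole multiples of the value of 1 read within 0.001 reads, which gave reads, depths and 95% Wilson intervals that cover counting error only.

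Treatments were compared within a tissue with limma 3.58.1 (R 4.3.3, variance trend) on log2(value + 1), which understates changes of low miRNAs. MiRNAs with a mean of at least 5 were tested, with Benjamini-Hochberg adjustment over all of them and a threshold of 0.05. Tissues were compared on reads brought to a common scale by median-of-ratios factors. Shares and read ratios used exact permutation tests over ewes, and correlations used all 576 permutations within groups. Equal ewe numbers in the labels mark the same animal; over 64 miRNAs, deviations in its 2 tissues correlated between -0.174 and 0.441.

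The members, lists and tests were chosen with earlier results of these data known. Named were both members, their listed relatives, miRNAs next in abundance, the 5 most and 3 least like MIR10B by correlation of deviations (fewer for MIR10A), and the measured vessel and stromal miRNAs. The tests of MIR10A, the ratio of MIR10B to MIR10A and the values by library set were added after the data were seen.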

Additional observations from a re-analysis of the deposited data

Results flagged for a closer look

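In 20 groups of 4 libraries, the gap of the highest or lowest value to its neighbour was compared with the range of the group, and chance marks about 1 in 20 such groups. MIR10A in prenatal T muscle had 278 normalised reads in ewe 48, far above the other 3 exposed muscles at 166 to 176, with a gap of 0.911 of the range against a limit of 0.829. The read ratio of MIR10B to MIR10A in prenatal T liver was 0.176 in ewe 233, far below the other 3 exposed livers at 0.319 to 0.339, with a gap of 0.877 of the range. That ewe's liver had 36 reads of MIR10B, the fewest of all libraries.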

How the results depend on the processing

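Of 243 alternative values 208 kept their direction and side of the threshold, 26 changed sign, 6 no longer passed and 3 newly passed. MIR10B against liver, its lower muscle level and the ratio between tissues kept their sign throughout. Scaled to miRNA reads, to miRNA reads without MIR133 and to the 4 classes, the tissue difference of MIR10A was -0.66, 0.41 and -1.36 in controls and -1.09, -0.070 and -1.87 in prenatal T ewes. In library set 2 alone the liver differences were -0.26 for MIR10A and -0.088 for MIR10B. The MIR10B share in muscle differed by -0.174 points without MIR133 in the total. With MIR125B as the partner, the muscle MIR10B ratio differed by -0.51 and the liver MIR10A ratio by 0.041. On reads relative to all miRNA reads, r between the members in muscle was -0.190, and in set 1 alone -0.235. The cause was not tested.

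Leaving out 1 library gave liver differences of -0.20 to 0.14 for MIR10A and -0.12 to 0.45 for MIR10B. Differences of shares ran from -0.0106 to 0.0165 points for MIR10A in liver, and for MIR10B from -0.00205 to 0.00964 in liver and -0.0930 to -0.0535 in muscle. In muscle the exact p was 0.0571 whichever exposed ewe was left out and 0.0286 whichever control was. Log2 ratios to MIR99A ran from -0.14 to 0.31 in liver and -0.49 to -0.27 in muscle for MIR10B, and from -0.20 to 0.037 and -0.59 to -0.31 for MIR10A. Those of MIR10B to MIR10A ran from -0.039 to 0.37 in liver and -0.11 to 0.20 in muscle.

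With the ewe as a replicate block the pairing changed no call on a member: the difference between tissues in the effect was -0.46 and -0.57, both with an adjusted p of 0.642 by limma. Count-based tests had been planned as alternatives and were not run, because a miRNA library has too few low values for the set check of recovered reads. MIR10B in liver rested on as few as 36 reads in a library, which limits the precision of its values.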
